A study of Mus musculus with 11 samples.

Results

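Accessible intervals that were open in T lineage cells and in innate lymphoid precursors but not in the common lymphoid progenitor (CLP) were collected from ATAC-seq, which maps open chromatin by where a transposase can insert its tags. Peaks of 9 libraries that shared at least 1 bp were merged, and an interval was selected by its pattern of peak calls, with a peak in both libraries of CD4 single positive thymocytes (CD4SP), in both of NKT thymocytes and in both of the innate lymphoid cell precursor (ILCP), and with none in the 3 CLP libraries. The rule left 959 of 71400 merged intervals (1.34%). Of the 12365 intervals open in those 6 CD4SP, NKT and ILCP libraries, 7.76% lacked a CLP peak, and these percentages describe the rule and are no test of it. All cells were sorted from untreated C57BL/6 mice of 4 to 8 weeks, and the replicates of a cell type are described as biological. CD4SP and NKT cells came from thymus, the NKT cells enriched with a CD1d-αGalCer tetramer. CLP and ILCP came from bone marrow, CLP sorted as Lin- IL-7Rα+ cells with intermediate cKit and Sca-1 and high Flt3, and ILCP as Lin- IL-7Rα+ α4β7+ eGFP+ cells. The eGFP gate needs a reporter allele, and the methods list a GFP reporter of *Zbtb16*, the PLZF gene, which the strain label of the ILCP libraries does not name. Cell type and tissue cannot be told apart between thymic cells and ILCP.

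CLP are bone marrow cells that can give rise to B, T and innate lymphoid cells. T cells mature in the thymus under signals from Notch and the T cell receptor, whereas innate lymphoid cells carry no rearranged antigen receptor and pass through the ILCP, and NKT cells have a T cell receptor together with innate-like effector functions. The T and innate lymphoid programmes share regulators, among them TCF1 (encoded by *Tcf7*), GATA3, TOX and the Runx factors. TCF1, GATA3 and Runx factors each read a short DNA word, and distal elements that open during commitment are where such words are usually found.

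Sequence was not used by the rule, and 10 windows are shown for the words that the results on sequence turn on. Each is the central 200 bp of an interval on the plus strand of GRCm38.p6 (mm10), in RefSeq's sequence. Capitals mark matches, on either strand, to a Runx word (TGTGGT or TGCGGT), a TCF1/LEF1 word (CTTTGAA or CTTTGAT) or a GATA word (AGATAA or TGATAA). The first 4 are the intervals with the highest mean rank among those with a match to all 3 words. The *Ets1* interval holds a TCF1/LEF1 and a GATA match that share letters. The last 5 are the highest-ranking intervals at the 5 genes with the most members, and of these the *Inpp4b* and *Prss2* windows hold no match.
Nek10 interval, intergenic, 168874 bp from the nearest start site, chr14:15100054-15100253: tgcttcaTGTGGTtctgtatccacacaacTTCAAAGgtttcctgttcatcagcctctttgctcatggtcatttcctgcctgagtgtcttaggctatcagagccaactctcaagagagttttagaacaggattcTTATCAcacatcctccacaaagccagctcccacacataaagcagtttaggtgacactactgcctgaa
St8sia4 interval, in an intron, chr1:95655608-95655807: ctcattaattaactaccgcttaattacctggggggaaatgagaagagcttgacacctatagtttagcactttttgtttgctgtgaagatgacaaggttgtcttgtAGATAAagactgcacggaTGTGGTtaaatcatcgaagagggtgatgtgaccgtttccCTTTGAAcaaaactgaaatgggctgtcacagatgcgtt
Pik3r1 interval, over a start site in an intron, chr13:101702131-101702330: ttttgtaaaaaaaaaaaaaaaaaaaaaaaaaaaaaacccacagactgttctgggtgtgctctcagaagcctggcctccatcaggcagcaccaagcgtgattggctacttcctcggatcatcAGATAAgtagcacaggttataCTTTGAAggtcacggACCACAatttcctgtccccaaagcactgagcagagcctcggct
Fasl interval, intergenic, 116600 bp from the nearest start site, chr1:161670963-161671162: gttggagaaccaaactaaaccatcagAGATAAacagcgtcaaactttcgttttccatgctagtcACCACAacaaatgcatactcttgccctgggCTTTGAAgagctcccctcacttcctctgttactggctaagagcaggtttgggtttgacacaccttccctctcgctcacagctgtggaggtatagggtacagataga
Ets1 interval, in an intron, chr9:32740998-32741197: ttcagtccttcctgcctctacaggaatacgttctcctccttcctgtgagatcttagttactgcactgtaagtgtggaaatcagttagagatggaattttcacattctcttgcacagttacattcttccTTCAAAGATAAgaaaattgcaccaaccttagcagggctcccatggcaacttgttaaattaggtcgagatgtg
Slc4a4 interval, in an intron, chr5:89036354-89036553: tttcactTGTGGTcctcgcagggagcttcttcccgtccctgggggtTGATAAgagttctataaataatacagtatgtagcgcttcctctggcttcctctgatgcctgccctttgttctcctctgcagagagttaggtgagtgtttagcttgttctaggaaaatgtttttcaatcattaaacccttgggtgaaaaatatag
Akap2 interval, in an intron, chr4:57731052-57731251: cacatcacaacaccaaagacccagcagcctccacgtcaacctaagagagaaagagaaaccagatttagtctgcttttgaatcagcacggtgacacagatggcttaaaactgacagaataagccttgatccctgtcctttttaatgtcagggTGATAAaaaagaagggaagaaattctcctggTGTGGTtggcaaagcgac
Fam49a interval, in an intron, chr12:12350014-12350213: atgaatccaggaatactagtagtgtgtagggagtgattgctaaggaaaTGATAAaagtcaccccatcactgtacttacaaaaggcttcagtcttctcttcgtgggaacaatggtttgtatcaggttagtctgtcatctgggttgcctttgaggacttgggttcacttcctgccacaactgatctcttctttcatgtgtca
Inpp4b interval, in an intron, chr8:81497696-81497895: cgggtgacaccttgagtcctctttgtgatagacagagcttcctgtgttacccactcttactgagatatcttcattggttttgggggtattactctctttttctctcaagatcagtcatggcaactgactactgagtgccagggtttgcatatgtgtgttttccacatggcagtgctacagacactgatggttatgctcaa
Prss2 interval, intergenic, among the segments of the T cell receptor β locus, chr6:41541429-41541628: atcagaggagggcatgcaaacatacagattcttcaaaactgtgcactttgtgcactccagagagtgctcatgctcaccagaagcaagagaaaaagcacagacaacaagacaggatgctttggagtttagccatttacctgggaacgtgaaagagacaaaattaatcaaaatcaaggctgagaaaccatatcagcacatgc

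The lowest peak score was 120 in each of the 9 lists, and the lists held 19343 to 41535 peaks. The methods state one span of read numbers for the ATAC-seq libraries together, and the depth of each library is unknown, so an absent CLP peak means that no peak was called, and scores were read as percentile ranks within a library (100 for the highest peak). CLP replicate 1 had the shortest list, and CLP replicates 2 and 3 set the rule: among intervals open in the 6 other libraries, 141 had their only CLP peak in replicate 2, 90 in replicate 3 and 6 in replicate 1. T cell start sites followed the labels, with peaks at 7 of 8 T cell markers in every thymic library, 2 or 3 in CLP and 2 in ILCP, and *Cd3e*, *Cd3d*, *Cd3g* and *Cd4* had no start-site peak in either ILCP library. Markers of ILC precursors did not set ILCP apart, with 4 or 5 of 6 open in ILCP, 4 or 5 in thymic libraries and 3 to 5 in CLP. *Zbtb16* was open in NKT, ILCP and CLP replicate 2, *Tox* in every library but ILCP replicate 1, and *Tcf7* in CD4SP replicate 2 alone. Of 5 CLP markers, 4 or 5 were open in CLP, 2 or 3 in ILCP and 1 or 2 in thymic libraries. *Flt3* was open in all CLP and ILCP libraries and in no thymic one and *Rag1* in CLP alone, whereas *Kit* was open in CLP, ILCP and NKT replicate 2, and *Il7r* in every library but ILCP replicate 2. Start sites of *Cd79a*, *Pax5*, *Lyz2* and *Klf1* had no peak in any library, while *Ebf1* had one in all. Among 4 myeloid markers 1 had a peak in each thymic library (*Itgam*), 0 in the ILCP libraries and 0 or 1 in CLP. Among 3 erythroid markers 0 to 2 had one in thymic libraries, 0 in ILCP and 0 or 1 in CLP. What part other cells in a sort had in the calls was not tested.

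Many of the intervals sat close to the limits that chose them. The lowest of an interval's 6 scores had a median of 189.91 over the 959 and ran from 120.05 to 1516, and it was under 150 in 257. Just outside the rule lay 237 intervals with a peak in 1 CLP library, whose CLP score had a median of 151 and was under 150 in 116. A further 1705 intervals had a peak in 2 CLP libraries and 9464 in all 3. Intervals with no CLP peak that missed a peak in 1 other library numbered 227 for ILCP replicate 1 and 283 for ILCP replicate 2, against 18 to 95 for the CD4SP and NKT libraries, so the ILCP lists, the shortest of the 6, set much of the number. A CLP peak lay within 500 bp of 46 of the intervals, and the median distance to one was 9889 bp. The peaks of the 6 libraries had at least 1 base in common in 956 of the 959. The long interval at *Cd4*, the coreceptor gene of CD4SP cells, spanned 7694 bp and held ILCP peaks, but none over the *Cd4* start site.

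The intervals lay mostly inside or between genes and away from start sites. Of the 959, 509 (53.1%) had their midpoint in an intron, 410 (42.8%) between genes and 40 (4.17%) in an exon, where all intervals gave 44.5%, 42.3% and 13.2%. A start site of a protein-coding gene lay within 1 kb of 76 (7.92%) and inside 46 (4.80%), against 23.6% and 19.7% of all intervals and 67.2% within 1 kb for the 9464 intervals open in every library. The median distance to a start site was 18675 bp, compared with 11355 bp over all intervals, 14367 bp for 5025 intervals open in the 4 thymic libraries alone, 27216 bp for 2611 open in ILCP alone and 20424 bp for 2774 open in CLP alone. Median width was 1225 bp (quartiles 1094.5 and 1416), above the 1015 bp of all intervals and below the 1826 bp of those open in every library. The central 200 bp had a median GC content of 46.5%, the same as intervals open in ILCP alone, whereas those open in every library had 59%. The intervals were spread over the genome: 939 gaps between neighbours on a chromosome had a median of 1392262 bp, and 32 were under 20 kb. Chromosome 1 held 88 and chromosome 10 held 79 (1.89% of its intervals), chromosome 11 held 32 (0.795%), and the X chromosome held 12, or 1.25% of the members against 2.24% of all intervals. Median repeat content was 16.7%, compared with 14.2% over all intervals.

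Words of Runx, TCF1/LEF1 and GATA factors were more frequent in the central 200 bp than over all intervals. Runx factors bind with CBFβ in T and innate lymphoid cells, and a Runx word was present in 415 of the 959 (43.3%, Wilson 95% interval 40.2 to 46.4%), against 28.5% of all intervals. TCF1 and LEF1 are HMG box factors of early T and innate lymphoid development, and 264 intervals (27.5%, 24.8 to 30.4%) held their word, against 10.3%. GATA3 is needed by both lineages, and a GATA word was present in 304 (31.7%, 28.8 to 34.7%), against 15.8%. These confidence intervals cover counting error only, and regions of a genome are not replicates. When all intervals were weighted to the GC content of the members, the shares became 31.2% for Runx, 12.9% for TCF1/LEF1 and 20.2% for GATA. Leaving out intervals within 1 kb of a start site gave 43.3%, 27.5% and 32.6% in the members and 31.6%, 12.004% and 18.3% over all. At least 1 of the 3 words was present in 71.6% of the members and 44.9% of all intervals, at least 2 of them in 27.1% and 9.03%, and all 3 in 36 members (3.75%) and 0.672%. Most intervals with a word held 1 match: 330 had 1 Runx match and 85 had more, 219 had 1 TCF1/LEF1 match and 45 more, and 264 had 1 GATA match and 40 more. GATA and TCF1/LEF1 words can share letters, as in the *Ets1* window, and did so in 6 members, of which 4 had no other GATA match.

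**Figure D1:**
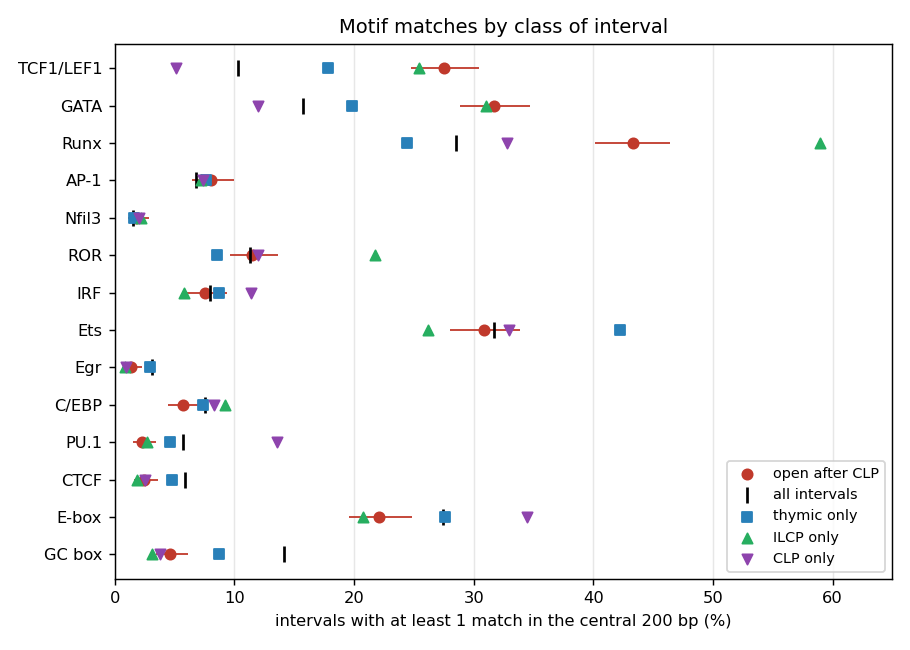
Share of intervals with at least 1 match to each of 14 motifs in the central 200 bp, in percent, for the 959 intervals open after CLP (circles, with Wilson 95% intervals), all intervals (black bars) and intervals open in thymic, ILCP or CLP libraries alone. For TCF1/LEF1, GATA and Runx the circles sit to the right of all intervals, and for PU.1 (2.29% against 5.68%) and the GC box (4.59% against 14.1%) to the left.

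Next to the classes open in a single lineage, the members stood nearest to ILCP-only intervals for the TCF1/LEF1 and GATA words and between the ILCP-only and thymic-only classes for Runx. The Runx word was present in 58.9% of ILCP-only, 24.4% of thymic-only and 32.8% of CLP-only intervals. For TCF1/LEF1 the shares were 25.4%, 17.8% and 5.08%, and for GATA 31.0%, 19.8% and 11.97%. All 3 words met in 4.02% of ILCP-only, 0.876% of thymic-only and 0 of 2774 CLP-only intervals. The ROR word AGGTCA, a core that RORα and RORγt share with other nuclear receptors, was present in 11.5% of the members and 11.3% of all intervals but in 21.8% of ILCP-only ones. The PU.1 word GAGGAAGT, read by a factor of myeloid and B cell progenitors that is shut down in T cells, ran the other way, with 22 members (2.29%, 1.52 to 3.45%) against 5.68% of all and 13.5% of CLP-only intervals. The Ets word CAGGAA was present in 30.9% of the members and 31.7% of all intervals, while thymic-only intervals had 42.2%. Over 1 kb from a start site the Ets shares were 30.2% of the members and 35.1% of all intervals. E-box words (CAGCTG or CAGGTG), read by E proteins, were present in 22.1% of the members, 27.4% of all and 34.5% of CLP-only intervals. The remaining words were AP-1 (TGANTCA, 8.03% of members and 6.82% of all), Nfil3 (TTANGTAA, 1.77% and 1.504%), IRF (GAAANNGAA, 7.51% and 7.95%) and C/EBP (TTGCNNAA, 5.74% and 7.54%). The words of Egr (GTGGGCG, 1.36% and 3.10%), CTCF (AGGGGGC, 2.40% and 5.87%) and the GC box (GGGCGG, 4.59% and 14.1%), rich in G and C, were below all intervals, but at the GC content of the members the shares of all intervals became 1.47%, 3.96% and 5.14%. The Wilson intervals of the members held these values for Egr and the GC box and lay below for CTCF (1.60 to 3.57%). Weighted in the same way, all intervals had 6.42% for PU.1, 33.8% for Ets, 25.1% for E-box, 9.76% for IRF, 8.85% for C/EBP, 7.80% for AP-1 and 1.97% for Nfil3 words, and the Wilson intervals of the members lay below these values for PU.1, E-box (19.6 to 24.8%), C/EBP (4.43 to 7.39%) and IRF (6.004 to 9.35%) and held them for Ets, AP-1 and Nfil3. The Wilson intervals cover counting error only and regions are not replicates, so these positions are a description and no test. The weighting was chosen after seeing the data, and without it the 7.95% of all intervals for IRF lay inside the Wilson interval of the members. A match is a string of letters and shows no binding.

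**Figure D2:**
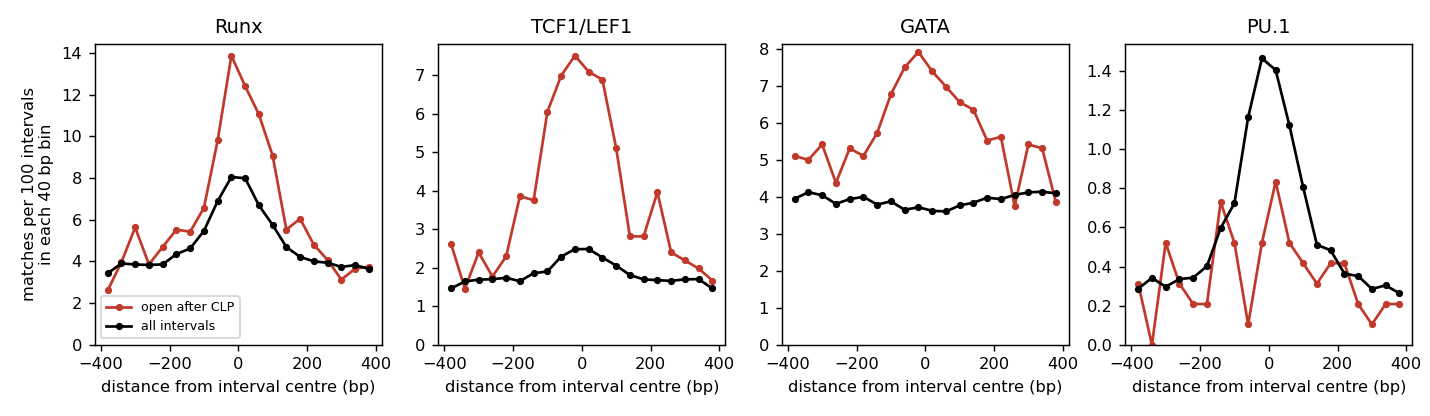
Matches per 100 intervals in 40 bp bins, by distance from the interval's centre, for the 959 intervals open after CLP (red) and all intervals (black). Runx and TCF1/LEF1 matches peak at the centre in both, GATA matches peak there in the members (7.92 against 3.72 over all intervals), and PU.1 matches peak in all intervals (1.47) and reach 0.834 at most in the members.

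The words were also placed at the centre of the intervals. In the 40 bp just before the centre there were 13.9 Runx matches per 100 members and 8.05 per 100 of all intervals. For TCF1/LEF1 the same bin had 7.51 against 2.48. GATA words reached 7.92 at the centre of the members, while over all intervals they were level, with 3.72 in that bin. PU.1 words had a central peak over all intervals (1.47) but reached 0.521 in that bin of the members, from 5 matches.

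Among intervals open in all 6 CD4SP, NKT and ILCP libraries, the shares of the 3 words were lower where more CLP libraries had a peak. For Runx they were 43.3% with none, 32.5% with 1, 23.5% with 2 and 19.9% with 3. For TCF1/LEF1 they were 27.5%, 13.5%, 10.6% and 4.63%, and for GATA 31.7%, 21.5%, 15.4% and 7.97%. Start sites moved with the same order, since 7.92%, 13.5%, 34.96% and 67.2% of these classes lay within 1 kb of one. Among intervals over 1 kb from a start site the Runx shares were 43.3%, 33.7%, 28.6% and 30.2%, so the order no longer held for its last step. The TCF1/LEF1 shares were 27.5%, 13.7%, 13.9% and 7.67%, with no fall between 1 and 2 CLP libraries, and the GATA shares 32.6%, 23.4%, 18.8% and 14.0%. In both readings the members had the highest share of each of the 3 words, and the 237 intervals with a single CLP peak, many of them near the score limit, stood below them.

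**Figure D3:**
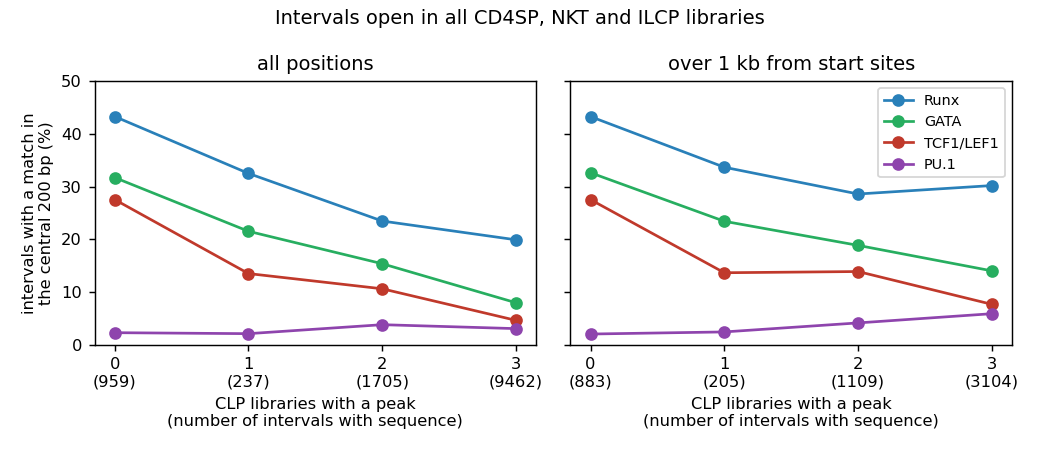
Share of intervals with a Runx, GATA, TCF1/LEF1 or PU.1 match in the central 200 bp, in percent, among intervals open in all CD4SP, NKT and ILCP libraries, by the number of CLP libraries with a peak (0 are the members). The left panel holds all positions and the right panel those over 1 kb from a start site, where GATA goes from 32.6% to 14.0% and TCF1/LEF1 from 27.5% to 7.67%.

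A search that named no factor gave related words. All 2080 hexamers, read on both strands, were ordered by the difference in share between 883 members and 54584 of all intervals over 1 kb from a start site. The first was CTTTGA (36.2% against 19.0%) and the second ATCAAA (26.3% against 12.9%), both parts of TCF1/LEF1 words. The third was ACCACA, the reverse complement of the Runx word TGTGGT (41.4% against 29.0%), and AGATAA was the eighth (20.5% against 11.3%). Between these stood ATGTGG (30.0% against 17.8%) and CACATC (26.0% against 15.3%), which overlap in the longer word GATGTGG, which reaches into the Runx word. That longer word, chosen after the hexamers were seen, was present in 140 members (14.6%), 6.20% of all intervals, 8.20% of thymic-only, 15.5% of ILCP-only and 4.36% of CLP-only intervals. Among words of 8 letters the largest differences were for CTTCAAAG (7.93% against 2.76%), AACCACAT (7.70% against 2.76%) and ACCACATC (7.25% against 2.58%). At the other end of the order were GAGGAA (20.8% against 29.6%), AGGAAG (34.99% against 43.0%) and ACTTCC (19.0% against 26.9%), all parts of the PU.1 word. On one strand or the other they also hold the letters GGAA, which the Ets word CAGGAA shares.

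The intervals ranked high in NKT libraries and near the middle of the ILCP lists. Their median rank was 64.5 and 62.7 in the CD4SP libraries, 74.1 and 70.3 in the NKT libraries, and 50.5 and 50.3 in the ILCP libraries. The NKT medians lay above the CD4SP medians and these above the ILCP medians, with no overlap between the groups when all called peaks were used. Intervals open in all 6 libraries, with or without a CLP peak, had medians of 77.1 and 80.3 in CD4SP, 79.1 and 81.5 in NKT, and 68.2 and 67.3 in ILCP. The members were thus below that wider class in every library. The highest 10% of a list held 112 and 75 of the 959 members in CD4SP, 168 and 77 in NKT, and 50 and 51 in ILCP. Of the 12365 intervals open in all 6 libraries it held 3061 and 3527, 3267 and 3679, and 2295 and 2262, in the same order. These were larger shares than those of the members in each library, and the NKT replicates differed widely in the member count. The difference between NKT (72.2 ± 2.67, SD, n = 2) and CD4SP (63.6 ± 1.28, n = 2) was 8.66 rank points, against 1.61 for all intervals open in the 6 libraries. An exact permutation test of the member difference gave p = 0.333, two-sided, the smallest value that 2 against 2 libraries can give. The difference between thymic libraries (67.9 ± 5.28, n = 4) and ILCP (50.4 ± 0.155, n = 2) was 17.5 points, against 11.8 for the wider class, and its exact permutation p was 0.0667, also the smallest possible. Both separations were lost when lists were matched: with 19343 peaks in each library, the thymic minus ILCP difference was 9.60 points (exact permutation p = 0.2) and the NKT minus CD4SP difference 8.11 points (p = 0.667). With the higher-scoring 50% of each list they were 13.5 points (exact permutation p = 0.2) and 9.06 points (p = 0.667). Neither comparison could reach the 0.05 threshold in this design.

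**Figure D4:**
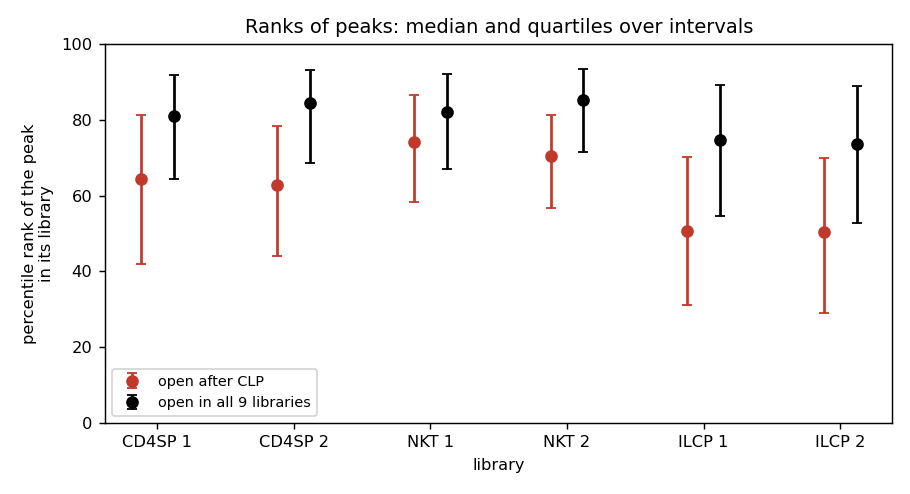
Percentile rank of the peaks in each of the 6 libraries, for the 959 intervals open after CLP (red) and the 9464 open in all 9 libraries (black); points are medians over intervals and bars the quartiles. The red medians are 62.7 to 64.5 in CD4SP, 70.3 to 74.1 in NKT and 50.3 to 50.5 in ILCP, each below the black point of its library.

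Ranks of the members followed each other within a cell type and much less between thymus and bone marrow. Over the 959 members Spearman's rho was 0.909 between the CD4SP replicates, 0.892 between the NKT replicates and 0.811 between the ILCP replicates. It was 0.669 to 0.738 between CD4SP and NKT libraries, 0.28 to 0.344 between NKT and ILCP, and 0.0759 to 0.112 between CD4SP and ILCP. These points share libraries and peak width and were given no p. Members with a GATA word had a higher median rank than those without in 6 of 6 libraries, by 2.92 to 7.05 points. Members with a Runx word had a lower median in the 4 thymic libraries, with a difference between -7.80 and -1.97 points, and a higher one in ILCP, by 2.40 and 1.45 points. The 36 members with all 3 words stood 8.89 and 6.15 points higher in the ILCP libraries and differed by -1.75 to 1.33 points in thymic ones. These differences are small beside the spread of the ranks, which had quartiles of 31.0 and 70.3 in ILCP replicate 1. The libraries rank the same members and are not repeats of the contrast, and other intervals were not compared in this way.

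The 10 members whose lowest rank was highest lay near genes of varied function, and they are given as a description since a peak in each library was required. The first, 206370 bp from the start site of *Atp10a*, a phospholipid flippase gene, scored 2956 and 2833 in CD4SP, 2043 and 2081 in NKT, and 1255 and 1198 in ILCP, and its lowest rank was 95.5. An interval in an intron of *Arpp21* followed, with a lowest rank of 94.3 and 2 GATA matches. The others lay nearest to *Fhit*, *Zfp800*, *Smco4*, *5330417H12Rik*, *Eipr1*, *Sgk3*, *Zfp51* and *Cblb*, with lowest ranks of 94.0 down to 89.3. *Sgk3*, a kinase gene downstream of PI3K, had the one interval of these that covered a start site, with ranks of 90.6 and 90.9 in CD4SP, 94.0 and 89.8 in NKT, and 92.0 and 94.1 in ILCP. The interval assigned to *Cblb*, a ubiquitin ligase gene that restrains T cell activation, lay 325301 bp from its start site. Of the 10, 6 held a GATA match, 4 a Runx match and 2 a TCF1/LEF1 match. At the other end, the interval nearest the score limit lay 463013 bp from the *Tox* start site and scored 1557 and 1694 in CD4SP, 1267 and 1243 in NKT, but 143.65 and 120.05 in ILCP. Intervals at *Ptpn14* and *Tm7sf3* came next, with lowest scores of 120.13 and 120.15, each in ILCP replicate 2.

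More members ranked higher in NKT than in CD4SP than the other way round. Both NKT ranks exceeded both CD4SP ranks in 407 of the 959 (42.4%), while this held for 19.9% of the 24221 intervals with a peak in all 4 libraries and for 25.4% of the 12365 open in the 6 libraries. Both CD4SP ranks exceeded both NKT ranks in 144 (15.02%), against 20.6% and 14.6%. The rule required the CD4SP and NKT peaks that are ranked here, though not their order, and no test of the shares was made. The largest gap was at an interval 132348 bp from *Ctnnb1*, the β-catenin gene, which scored 131.27 and 123.64 in CD4SP, 469 and 829 in NKT, and 217 and 153 in ILCP. It held a match to all 3 words. Intervals nearest to *Setbp1*, *Kcnc1*, *Syne1* and *Pde8b* followed. At *Pde8b*, a phosphodiesterase gene, the scores were 161 and 237 in CD4SP against 1078 and 1602 in NKT, and 206 and 257 in ILCP. At *Syne1* the CD4SP ranks were 2.64 and 2.12, the NKT ranks 78.0 and 60.7 and the ILCP ranks 81.2 and 79.6, so NKT and ILCP stood together above CD4SP. In the other direction the largest gaps were at *Chd2*, a chromatin remodeller gene (CD4SP ranks 63.3 and 65.01, NKT 22.1 and 22.6, ILCP 14.0 and 23.0), and at *Rictor*, a subunit gene of mTORC2 (CD4SP 68.9 and 68.3, NKT 38.2 and 25.3). *Eed*, *Phxr2* and *Tbl1xr1* completed these 5. The Runx word was present in 47.4% of the 407 and in 38.2% of the 144, TCF1/LEF1 in 29.5% and 22.9%, AP-1 in 10.8% and 4.17%, and GATA in 32.4% and 31.9%. These word shares were not taken over the other intervals with such ranks, so nothing particular to the members is read from them.

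Between thymic cells and ILCP the members divided much as other intervals did. All 4 thymic ranks exceeded both ILCP ranks in 435 members (45.4%), next to 44.9% of the 12365 intervals open in the 6 libraries, and the reverse held in 123 (12.8%), next to 15.3%. These shares were close to the background. The interval far from *Tox* described above had the largest gap in favour of thymic cells, with thymic ranks of 87.3 to 93.5 and ILCP ranks of 14.6 and 0.087. Intervals at *Sorl1*, *Tdrp*, *Btla* and *Kcnq5* followed. *Btla* encodes an inhibitory receptor of lymphocytes, and its interval, with 1 Runx, 2 TCF1/LEF1 and 1 GATA match, scored 1190 and 1223 in CD4SP, 796 and 907 in NKT, and 139.25 and 131.86 in ILCP. The largest gap in favour of ILCP was at an interval 94866 bp from a start site of *Cd226*, an activating receptor gene of T and NK cells, with scores of 540.1 and 636 in ILCP, 137 and 201 in CD4SP, and 205 and 189.78 in NKT. The others were nearest to *Bcl2l10*, *Tbc1d7*, *Ubap2* and *Polr3g*, the last with ILCP ranks of 91.3 and 86.8 and thymic ranks of 12.5 to 50.7, beside a CLP peak 85 bp away. The Runx word was present in 52.8% of the 123 and in 40.5% of the 435, and its share was not taken over the other intervals with such ranks.

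With each protein-coding gene extended by 20 kb, 871 of 21924 genes (3.97%) had at least 1 of the intervals, and 809 of them had 1. *Inpp4b*, a phosphoinositide phosphatase gene of 785359 bp, had 5, all in introns, and 6 intervals there were open in the 6 libraries. Its highest-ranking interval scored 806 and 859.52 in CD4SP, 617 and 690.35 in NKT, and 348 and 351 in ILCP. *Slc4a4*, a bicarbonate transporter gene, had 4, all in introns. The first of these scored 2860.43 and 2399 in CD4SP, 1609 and 1419 in NKT, and 288 and 304 in ILCP, with thymic ranks of 89.9 to 98.8 above ILCP ranks of 57.1 and 60.3. *Fam49a*, *Akap2* with the overlapping *Pakap*, *Myo5b*, *Cep128* and *Gm20696* had 3 each, as did *Prss2*, and the *Akap2* and *Pakap* intervals were the same. The *Gm20696* model overlaps *Foxp1*, a forkhead factor gene of lymphocytes, and the nearest start site to 1 of its intervals was that of *Foxp1*. *Phxr2*, *Olfr700*, *Galnt4*, *Olfr699*, *Olfr524* and *Mcoln3* had 2 each, and *Phxr2* and *Galnt4* shared theirs, as did the olfactory receptor genes *Olfr700* and *Olfr699*. Of those shared by *Phxr2* and *Galnt4*, the interval at chr10:99116506-99117966 had a CLP peak 56 bp away. Long genes offer more room, so counts per gene are not comparable between genes of different length.

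The *Prss2* count belongs to the T cell receptor β locus, in which this trypsinogen gene lies. The 3 intervals were at chr6:41532136-41534274, chr6:41540482-41542574 and chr6:41544161-41545369, nearest to the segments *Trbd1*, *Trbd2* and *Trbj2-7* that are joined when the receptor is rearranged. The *Trbd1* interval scored 488 and 642 in CD4SP, 668 and 715 in NKT, and 2364 and 2341 in ILCP. Its ILCP ranks were 99.2 and 99.3 and its thymic ranks 63.6 to 79.4. At the *Trbd2* interval the ILCP ranks were 95.2 and 94.3 and the thymic ranks 70.8 to 77.7, and at *Trbj2-7* they were 63.7 and 73.3 against 35.1 to 60.1. In each of the 3 intervals both ILCP ranks stood above all 4 thymic ranks. The nearest CLP peak was 8344 to 13463 bp away. ILCP have no T cell receptor on their surface, and these libraries had no peak at the start sites of *Cd3e*, *Cd3d* or *Cd3g*. The state of rearrangement of the locus in these cells was not measured. A further 2 intervals lay at variable segments, nearest to *Trbv12-1* and to *Trav1* of the T cell receptor α locus.

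Genes of T cell receptor signalling had the intervals most often among 7 lists of genes. In that list 8 of 23 genes (34.8%) had one, against 3.97% of all protein-coding genes, with a median gene length of 48932 bp in the list and 17410 bp overall. An interval open in all 6 libraries was present at 19 of the 23 genes, against 11462 of all 21924 genes. They included *Cd247*, the ζ chain of the receptor complex, the kinase genes *Fyn* and *Prkcq*, the adaptors *Lcp2*, *Sla* and *Trat1*, and *Themis*, needed for positive selection. The *Themis* interval covered the start site and scored 1487 and 1855 in CD4SP, 1773 and 1721 in NKT, and 310.02 and 249 in ILCP, with the nearest CLP peak 49951 bp away. The *Trat1* interval also lay at the start site, with ranks of 81.0 and 68.2 in CD4SP, 85.1 and 66.2 in NKT, and 42.0 and 10.4 in ILCP. *Fyn* went the other way, with ranks of 60.2 and 66.7 in ILCP above 17.8 to 50.3 in thymic cells. The *Sla* interval also lies within *Tg*, and the *Lcp2* interval lies past the end of *Lcp2*, nearest to the start site of *4930469K13Rik*. Neither can be assigned to the listed gene from position alone. The *Prkcq* interval was intergenic, upstream of the gene. With gene bodies alone, 5 genes of this list had an interval.

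**Figure D5:**
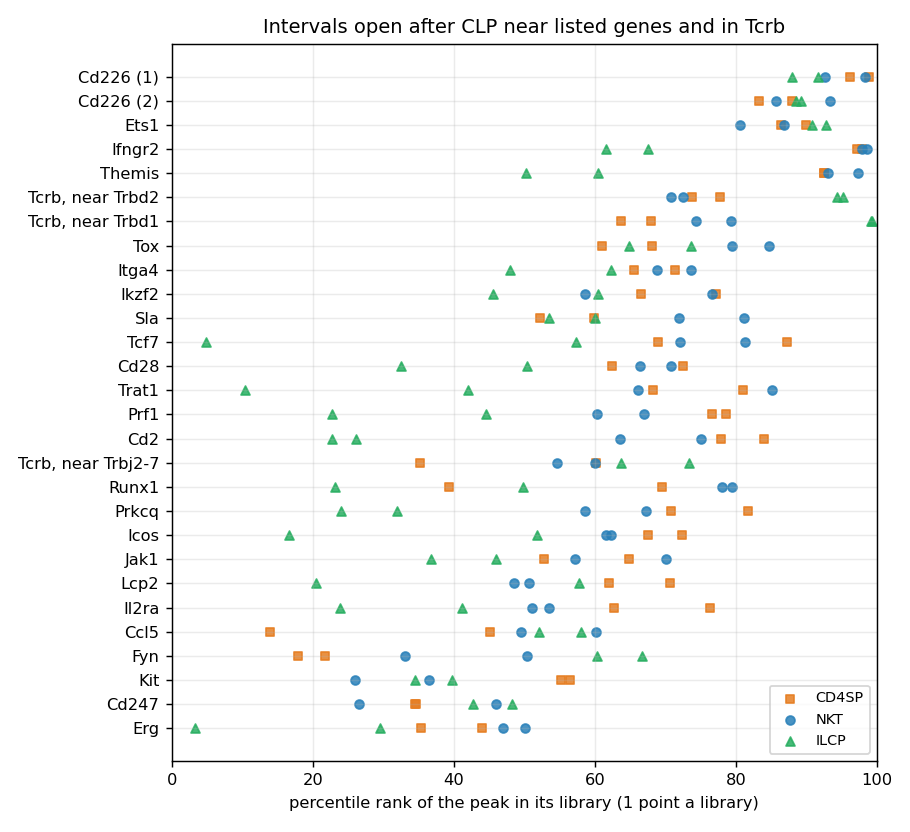
Percentile rank in each CD4SP, NKT and ILCP library, 1 point a library, of intervals open after CLP at listed genes and of the 3 in the T cell receptor β locus (Tcrb). The *Trbd1* and *Trbd2* intervals have ILCP ranks of 94.3 to 99.3 above all thymic points, and at *Themis* and *Ifngr2* the thymic points lie above those of ILCP.

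Among 25 genes of T and innate lymphoid transcription factors, 5 (20%) had an interval, against 3.97% of all protein-coding genes. They were *Ikzf2*, *Tox*, *Ets1*, *Tcf7* and *Runx1*, with a median gene length of 58761 bp in the list and 17410 bp overall. The *Ets1* interval, in an intron, ranked 86.4 and 89.97 in CD4SP, 86.8 and 80.6 in NKT, and 92.8 and 90.9 in ILCP, so both ILCP ranks exceeded all thymic ones by a narrow margin. The *Tox* interval at chr4:6674639-6675806, downstream of the gene, scored 454 and 647 in CD4SP, 812 and 867 in NKT, and 428 and 338 in ILCP. In *Tcf7*, which encodes TCF1, the ILCP replicates disagreed, with ranks of 4.84 and 57.3 beside thymic ranks of 69.0 to 87.3, and its nearest CLP peak was 710 bp away. The *Runx1* interval, in an intron with 1 GATA match, ranked 39.3 and 69.6 in CD4SP, 79.4 and 78.0 in NKT, and 23.1 and 49.8 in ILCP. *Gata3*, *Id2*, *Nfil3*, *Zbtb16* and the rest of the list had none, while 20 of the 25 had an interval open in all 6 libraries, as did 11462 of all 21924 genes.

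Of 25 surface, adhesion and migration genes, 5 (20%) had an interval, against 3.97% of all protein-coding genes. They were the costimulatory receptor genes *Cd28* and *Icos*, the adhesion genes *Cd2* and *Itga4*, and *Cd226*, which had 2. Median gene length was 21887 bp in the list and 17410 bp overall. An interval open in all 6 libraries was present at 18 of the 25, against 11462 of all 21924 genes. The *Cd2* interval had a CLP peak 46 bp away. *Itga4* encodes the α4 chain of the α4β7 integrin by which ILCP were sorted, and its intronic interval ranked 71.4 and 65.5 in CD4SP, 73.6 and 68.8 in NKT, and 62.3 and 48.0 in ILCP. The first *Cd226* interval scored 2892 and 2457 in CD4SP, 2102 and 1666 in NKT, and 909 and 721 in ILCP, and covered an internal start site. The second scored 1158 and 1169 in CD4SP, 1262 and 1144 in NKT, and 782 and 743 in ILCP, so that the lowest rank was 88.0 in the first and 83.3 in the second. Among 23 cytokine receptor and signalling genes, with a median length of 35303 bp, *Il2ra*, *Jak1* and *Ifngr2* (13.0%) had one. Of these 23 genes, 18 had an interval open in all 6 libraries. The *Ifngr2* interval, upstream of this interferon-γ receptor gene and with 2 Runx matches and 1 TCF1/LEF1 match, ranked 97.2 and 98.0 in CD4SP, 98.6 and 98.0 in NKT, and 61.5 and 67.5 in ILCP. The *Il2ra* interval lay in an intron and held 2 Runx matches and 1 match each to the TCF1/LEF1 and GATA words, with ranks of 76.4 and 62.7 in CD4SP, 53.5 and 51.1 in NKT, and 23.9 and 41.2 in ILCP.

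Of 12 effector genes, *Prf1*, which encodes perforin, and the chemokine gene *Ccl5* had an interval (16.7%), both outside the gene body. Of 14 genes of B lineage priming, with a median length of 13080.5 bp, 0 had one. With 3.97% of all genes as background, a list of this size can hold none, so nothing is read from this count. Of 20 progenitor and myeloid genes, *Kit* and *Erg* (10%) had one. The *Kit* interval, 87493 bp downstream of the start site of this stem cell factor receptor gene, ranked 56.5 and 55.2 in CD4SP, 36.5 and 26.0 in NKT, and 34.5 and 39.7 in ILCP. The *Erg* interval ranked 3.21 and 29.5 in ILCP and 35.3 to 50.04 in thymic cells.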

How the data were processed

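ATAC-seq peaks of 9 libraries (2 CD4SP, 2 NKT, 3 CLP and 2 ILCP, described as biological replicates) were used. The authors aligned reads of 50 bp to mm10 with Bowtie, allowing 2 mismatches, and deposited for each library its own list of peaks with a score, named as MACS peaks. The submitters' processing notes also name Picard and HOMER. Peak caller version, duplicate removal and read shifting are not given in the sources used here. A Runx1 chromatin immunoprecipitation library and its input were not analysed here.

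Peaks sharing at least 1 bp were merged with Python 3.11.15, numpy 2.4.6 and pandas 2.3.3. Scores were turned into percentile ranks within a library, since the depth of each library is unknown. Genes came from GENCODE M21 and sequence from GRCm38.p6. Motif letters were matched on both strands of the central 200 bp. Rank medians were compared by exact permutation of libraries, two-sided, and shares were described beside those of all intervals, without a test. Members, lists and motifs were chosen with earlier results of these data known. Named genes were the 15 with the most members (ties from the shortest gene) and list genes with at least 2 members, with other list members given as counts or examples. Named regions were the 10 highest by lowest rank and the 5 with the largest gap in each rank comparison. *Cd4*, the list genes with 1 member, the intervals nearest the score limit, those shown for all 3 words and the longer words were picked after their values were seen. Values of 1 list gene and 1 marker are not reported here. Classification, motif search and permutation test were tested on simulated data.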

Additional observations from a re-analysis of the deposited data

How the results depend on the processing

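The call of each interval depends on peak limits and not on a test. Of the values that answer a comparison, 18 shares and counts moved past their error or by over 1.5 times under the alternatives. The thymic minus ILCP rank difference also moved by over 1.5 times, from 17.5 to 9.60 points with lists of equal length. No rank difference could pass 0.05 in any setting, so its p-values say nothing about stability. With the higher-scoring 50% of each list, 465 intervals were left and the Runx share was 37.0%. With 19343 peaks in each library the Runx share was 37.0%, that of TCF1/LEF1 24.1% and that of start sites within 1 kb 10.2%. Over whole intervals the shares of members were 84.0% for Runx, 61.9% for TCF1/LEF1, 79.6% for GATA and 10.3% for PU.1, against 69.7%, 39.0%, 62.9% and 13.9% of all intervals. A start site lay inside 4.80% and within 2500 bp of 13.8%. With gene bodies alone 519 genes had a member, and the lists gave 3 transcription factor, 5 receptor signalling, 0 effector and 1 progenitor gene, and with 5 kb on each side 1 effector and 1 progenitor gene. The weighting to GC content and the need for a shared base (956 intervals) were chosen after seeing the data.

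Leaving out 1 library at a time gave 965 to 1242 intervals, with start sites near 7.61% to 8.58%, Runx in 40.4% to 44.9%, TCF1/LEF1 in 25.9% to 28.3%, GATA in 30.3% to 31.6% and PU.1 in 2.18% to 2.77%. The NKT minus CD4SP difference was then 6.996 to 11.2 points and the thymic minus ILCP difference 14.9 to 24.4, while the latter was 9.60 with 19343 peaks in each library and 13.5 with the higher-scoring 50% (exact permutation p = 0.2 for both), and the former 8.11 and 9.06 (p = 0.667 for both). With labels exchanged within a replicate number, as a block, the exact permutation p was 0.5 and 0.111 for differences of 8.66 and 17.5 points, in each case the smallest that the block allows. The numbers do not pair the samples by the labels, and differences between replicates correlated at 0.451 between CD4SP and NKT and at -0.0226 and -0.0502 with ILCP over intervals open in the 6 libraries. Depth per library is unknown, so no floor could be set on an absent peak.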

Other observations

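Of 46 intervals that covered a start site, 6 outside the lists are named here, chosen after their values were seen. They stand for no group, since the others include *Cdh23*, *Trpm1*, *Ntrk3* and *Olfr525*. *Pik3r1*, the regulatory subunit of PI3K, had a mean rank of 85.6 over the 6 libraries, with a lowest rank of 68.1. *Tiam1*, an exchange factor for Rac, had a mean rank of 83.4. *Tigit*, an inhibitory receptor, had a mean rank of 67.9 and a lowest rank of 9.57. *Tnfrsf9*, a costimulatory receptor, had 62.6 and 7.88. The *Il9r* interval had a mean rank of 74.7 and a CLP peak 107 bp away. *Pou2af1*, a coactivator gene of B cells, had a mean rank of 77.8 and a lowest rank of 38.6.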
